A study of Homo sapiens with 18 samples.

Results

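A set of 10 long noncoding RNAs (lncRNAs) known from the nucleus or from colon cancer was followed in HCT116 cells, an established human colorectal carcinoma line of epithelial origin: MALAT1, NEAT1, KCNQ1OT1, NORAD, TUG1, H19, PVT1, CCAT1, LUCAT1 and OIP5-AS1. They were chosen by gene symbol. Of these 10 genes, 9 were found among the 38055 genes of the whole transcriptome RNAseq table, and CCAT1 was not analysed here. The cells were wild type and untreated, and were grown in 2D culture in McCoy's 5A medium with fetal bovine serum. Whole cell RNA was taken on Day 3 (50% confluency), Day 5 (250% confluency) and Day 7 (400% confluency in the labels). Whole transcriptome values were analysed for Day 3 and Day 5, with 3 biological replicates each, and small-RNAseq values for all 3 days, with 3 each. The days differed in both cell density and time in culture, which cannot be told apart. In bulk RNA, fewer cells expressing a gene and less RNA per cell cannot be told apart either, and whole cell RNA does not show whether a transcript was in the nucleus or the cytoplasm.

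LncRNAs are transcribed and often spliced like messenger RNAs but act as RNA. MALAT1 sits in nuclear speckles, which hold splicing factors, and NEAT1 is the scaffold around which paraspeckles are built. NORAD is a cytoplasmic RNA that binds Pumilio proteins, H19 and KCNQ1OT1 are imprinted transcripts of the same growth-control cluster on chromosome 11, OIP5-AS1 (Cyrano) directs the decay of the microRNA miR-7, and LUCAT1, PVT1 and CCAT1 are known for high expression in tumors. TUG1 is a widely expressed RNA with both nuclear and cytoplasmic roles.

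The libraries held 27470978 to 56689369 reads on genes, and the third Day 3 replicate was the shallowest. Mitochondrial genes took 6.77 to 7.24% of all values on Day 3 and 5.46 to 6.13% on Day 5. Within Day 3, the third replicate had the lowest value of 7 of the 9 lncRNAs, and it also had the highest mitochondrial share. Of 10 epithelial markers, 8 had a mean value of at least 10, with VIL1 and LGALS4 below it. The summed value of all 10 ranged from 38198 to 56738 on Day 3 and from 105875 to 106420 on Day 5. Of 9 markers of leukocytes, fibroblasts, endothelium and muscle, 8 were in the table and 4 (COL1A1, COL3A1, VWF and DES) had a mean of at least 10. The sum of the 8 was 563 to 631 on Day 3 and 1218 to 1278 on Day 5, and PTPRC, CD3E, CD68 and DCN were near 0. Most of that sum was COL1A1, with means of 521 on Day 3 and 1129 on Day 5. Of the tested markers, 6 of 8 epithelial and 3 of 4 other markers rose, where 40.4% of all protein-coding genes tested did. With libraries centred on a common median, 2 of the 4 other markers rose, as did 4985 of all 20129 genes tested. The same 6 epithelial markers then rose, and 2, EPCAM (log2 fold change -0.17) and KRT20 (-0.84), were called lower. The part of these markers in the lncRNA results was not tested.

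The comparison of Day 5 with Day 3 asks how these RNAs change as the cells grow past confluence. NEAT1, NORAD, H19 and LUCAT1 were 2.08 to 10.6 times higher on Day 5 by the ratio of the means, whereas MALAT1, by far the most abundant of the 9, and KCNQ1OT1 had overlapping values on both days. OIP5-AS1, PVT1 and TUG1 moved by less than 0.22 on the log2 scale. By limma on log2(value + 1), with p-values adjusted by Benjamini-Hochberg over all 20129 genes tested, 7 of the 9 lncRNAs passed an adjusted p of 0.05, where 59.9% of all genes did. Of these, 5 rose (31.1% of all genes) and 2 fell (28.7% of all genes). The same 7 lncRNAs had Day 5 values that all lay on one side of their Day 3 values, as had 65% of all genes. The median log2 fold change was 0.18 over the 9 lncRNAs and 0.01 over all genes tested. The share called was not tested against this background, and the sizes of change differed from gene to gene.

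**Figure D1:**
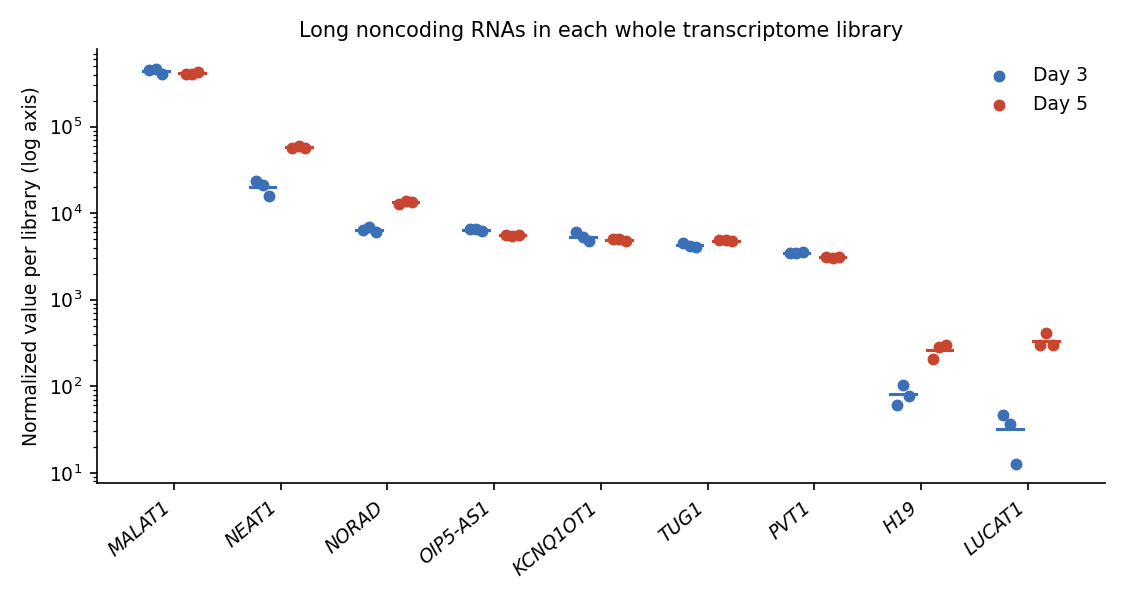
Normalized value of each lncRNA (log axis) in the 3 Day 3 and 3 Day 5 whole transcriptome libraries, ordered by the Day 3 mean. Points are libraries and lines are means. NEAT1, NORAD, H19 and LUCAT1 sit higher on Day 5, while the MALAT1 and KCNQ1OT1 points overlap.

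Scaling mattered for the small changes and not for the large ones. When the libraries were shifted to a common median over the tested genes, the median change of all genes moved from 0.01 to -0.16, and the share of calls that were higher went from 52% to 40%. The lncRNAs then split into 4 that rose and 3 that fell, with KCNQ1OT1 among the latter and TUG1 at 0.01 (adjusted p = 0.958). With library totals in place of the deposited scaling, the median change of all genes was 0.08 and 56.5% of calls were higher. Of the lncRNAs, 5 then rose and none fell, and PVT1 (-0.11, adjusted p = 0.162) and OIP5-AS1 (-0.15, adjusted p = 0.0847) no longer passed. NEAT1, NORAD, H19 and LUCAT1 passed in the same direction under each of the 14 alternatives.

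**Figure D2:**
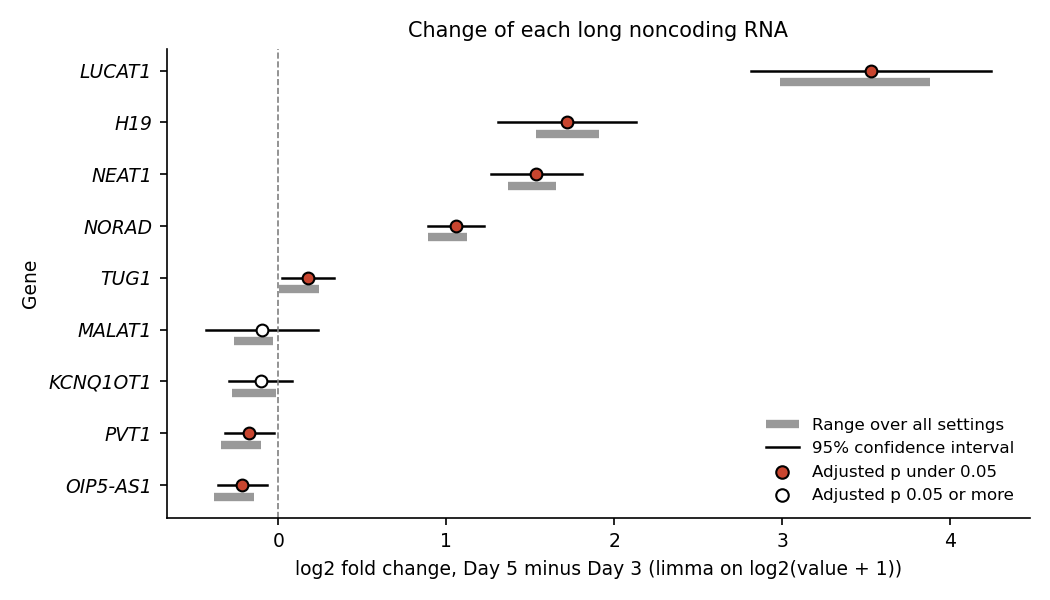
log2 fold change of each lncRNA, Day 5 minus Day 3, with its 95% confidence interval from limma (black line), and the range over all settings, including those that leave out 1 library (grey bar). Filled points passed an adjusted p of 0.05. The grey bars of LUCAT1, H19, NEAT1 and NORAD lie far from 0, and those of TUG1, MALAT1 and KCNQ1OT1 come close to it.

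MALAT1 (ENSG00000251562) is a single-exon nuclear RNA of 10434 bases at chr11:65497640-65508073 on the plus strand (GRCh38, GENCODE 44). Its normalized values were 454911, 465009 and 405637 on Day 3, and 401969, 401837 and 434545 on Day 5. The lowest Day 3 library lay inside the Day 5 range, so the days overlapped. The log2 fold change was -0.10 (SE 0.16; 95% interval -0.43 to 0.24; adjusted p = 0.614). Over all 6 libraries MALAT1 had the fourth highest mean of all genes, and it alone took 1.04 to 1.34% of all values. Per kilobase of exon, its mean level was 42347 ± 3045 on Day 3 and 39561 ± 1806 on Day 5 (SD, n = 3).

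NEAT1 (ENSG00000245532) lies on the same strand at chr11:65422774-65445540, with no protein-coding gene between it and MALAT1. It makes a short polyadenylated form and a long form that shares its 5′ end and builds paraspeckles, and the values per gene do not separate them. The values were 23380, 21409 and 15696 on Day 3, and 56270, 60378 and 56402 on Day 5. Every Day 5 library was above every Day 3 library, and the third Day 3 replicate was the lowest of all. NEAT1 rose 2.86-fold by the means, a log2 fold change of 1.54 (SE 0.13; adjusted p = 7.85e-08). Per kilobase of exon, the level went from 886 ± 175 to 2534 ± 103 (SD, n = 3), which on both days was far below that of MALAT1 on the same scale.

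The ratio of NEAT1 to MALAT1 within a library does not depend on how libraries are scaled. It was 5.14, 4.60 and 3.87% in the Day 3 libraries, and 14.00, 15.03 and 12.98% in those of Day 5. The means were 4.54% ± 0.638 and 14.0% ± 1.02 (SD, n = 3). For NORAD over MALAT1 they were 1.46% ± 0.0509 and 3.26% ± 0.201. Both ratios were separated between the days, and in a two-sided exact permutation test each gave p = 0.1, the smallest that 3 against 3 libraries allow and unchanged by adjustment over the 8 ratios tested. MALAT1 made up 90.0 to 90.9% of the summed value of the 9 lncRNAs on Day 3 and 81.1 to 83.1% on Day 5.

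**Figure D3:**
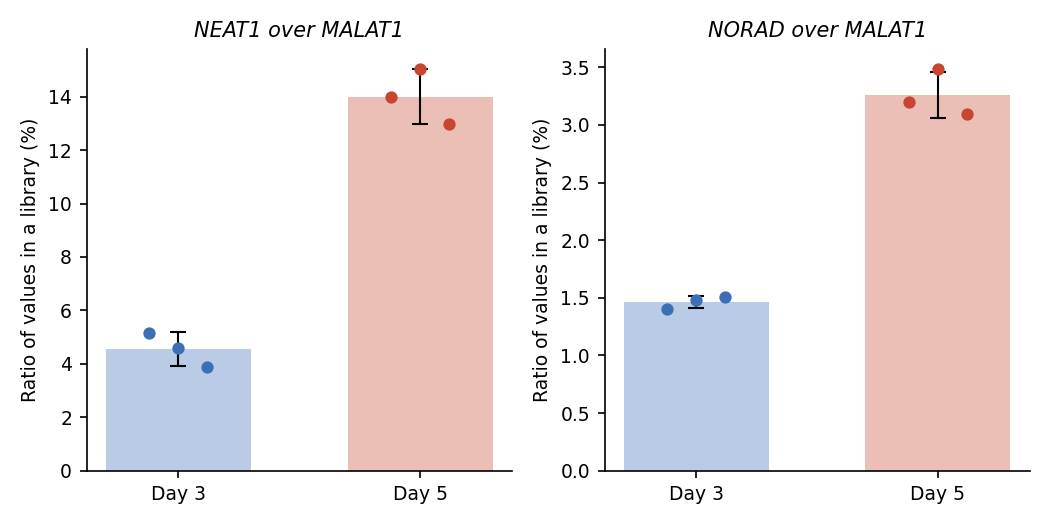
Ratio of the NEAT1 value (left) and the NORAD value (right) to the MALAT1 value of the same library, in percent. Bars are means, error bars SD over 3 libraries, points libraries. All Day 5 ratios lie above all Day 3 ratios.

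FRMD8, which stabilizes the iRhom-ADAM17 sheddase complex, lies 9248 bp upstream of NEAT1 and rose by 0.86 (SE 0.09; adjusted p = 1.02e-06).

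Proteins of the nuclear bodies that these RNAs belong to moved in both directions. Of 14 paraspeckle proteins tested, 6 rose and 5 fell, with a median log2 fold change of 0.13. Of all 13132 protein-coding genes tested, 40.4% rose and 30.4% fell, with a median of 0.12. No list of genes was tested against this background. The core proteins NONO (0.39, adjusted p = 0.00149) and SFPQ (0.27, adjusted p = 0.00800), which bind NEAT1 as a dimer, rose, while their paralog PSPC1 fell by 0.64 on the log2 scale (adjusted p = 3.89e-06). SMARCA4, a chromatin remodeler needed for paraspeckle assembly, had the largest rise of the list (1.13, adjusted p = 9.16e-09). NUDT21, a cleavage factor subunit that favors the short NEAT1 form, changed by -0.55 (adjusted p = 1.05e-05), and HNRNPK, which favors the long form, by -0.08 (adjusted p = 0.489). Under median centring the median of the list turned to -0.04, with 4 higher and 6 lower. SFPQ then lost its call (0.10, adjusted p = 0.262) and HNRNPK passed as a fall (-0.25, adjusted p = 0.0105).

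All 10 nuclear speckle proteins passed the test, 4 higher and 6 lower, with a median of -0.37. Of all protein-coding genes tested, 40.4% were higher and 30.4% lower. Under median centring RNPS1 lost its call (0.10, adjusted p = 0.211), which left 3 higher and 6 lower. The scaffold proteins SON (0.52, adjusted p = 7.07e-05) and SRRM2 (1.22, adjusted p = 1.20e-08) rose. SRSF1 (-0.46, adjusted p = 0.000100), SRSF2 (-0.55, adjusted p = 3.33e-05) and SRSF3 (-1.13, adjusted p = 9.56e-09), splicing factors of the SR family, fell.

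MALAT1 and the long form of NEAT1 have no poly(A) tail at their 3′ end, which RNase P cleaves and a triple helix protects. Of 12 genes for this processing, 9 fell (30.4% of protein-coding genes) and 1 rose (40.4%), with a median of -0.71, beside 0.01 over all genes. The RNase P subunits POP5 (-1.59, adjusted p = 8.65e-09), RPP40 (-1.36, adjusted p = 5.73e-08) and POP4 (-1.30, adjusted p = 9.70e-09) fell furthest. METTL16, which binds the MALAT1 triple helix, also fell (-0.28, adjusted p = 0.00673), and ELAC2, the RNase Z that trims the tRNA-like product, rose (0.38, adjusted p = 0.00750), a call that was lost under median centring. The level of MALAT1 itself did not pass the test, as given above.

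NORAD (ENSG00000260032, chr20:36045618-36051018, minus strand, 1 exon of 5401 bases) sequesters Pumilio proteins, which destabilize messenger RNAs that carry the motif UGUANAUA. Because that motif is what NORAD is known for, it was counted on the sense strand of the longest GENCODE 44 transcript of each lncRNA. NORAD held 15 copies, or 2.78 per kilobase, more per kilobase than 99.8% of the 1667 tested lncRNA genes whose longest transcript has at least 1000 bases, of which 21.4% held any. The other 8 had 0 to 0.326 per kilobase: KCNQ1OT1 held 9, NEAT1 6, TUG1 2, LUCAT1 and OIP5-AS1 1 each, and MALAT1, H19 and PVT1 none. Copies 1, 3, 11 and 15 of NORAD, which are spread along the transcript, are shown as DNA letters of the transcript with the motif in capitals. They lie at chr20:36050185-36050208, chr20:36049705-36049728, chr20:36047974-36047997 and chr20:36046347-36046370 (GRCh38, minus strand).
Copy 1: aaggcctgTGTATATAatatgaaa
Copy 3: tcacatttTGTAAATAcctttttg
Copy 11: ccctactgTGTATATAgcggacaa
Copy 15: agcctattTGTAAATAcctttgtt

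NORAD had values of 6392, 6876 and 6096 on Day 3, and 12855, 13993 and 13446 on Day 5. The days did not overlap, and both were tightly grouped. NORAD rose 2.08-fold by the means, a log2 fold change of 1.06 (SE 0.08; adjusted p = 2.54e-08). Per kilobase of exon it went from 1195 ± 72.9 to 2487 ± 105 (SD, n = 3). On that scale the NORAD and NEAT1 means on Day 5 differed by less than the SD of either. The NEAT1 mean divides by 22767 bp, the span of the long form, although the short form is shorter. The closeness of both means therefore depends on that length.

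Of the 5 protein partners of NORAD, 3 rose (40.4% of protein-coding genes) and 1 fell (30.4%). The Pumilio protein PUM2, with -0.18, missed the threshold (adjusted p = 0.0516) and passed, as a fall, under median centring. KHDRBS1 (SAM68), which aids Pumilio binding to NORAD, rose 2-fold (1.00, adjusted p = 3.49e-07). TOP1, the topoisomerase of the NORAD complex that guards genome stability, rose by 0.88 (adjusted p = 6.02e-07), and RBMX of the same complex fell (-0.31, adjusted p = 0.00293).

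LUCAT1 (ENSG00000248323, chr5:91054834-91314547, minus strand) is a stress-inducible RNA first known from smokers' airway epithelium and tied to the oxidative stress factor NRF2. Its values were 46.5, 36.5 and 12.8 on Day 3, and 300.4, 407 and 303 on Day 5. Every Day 5 library was more than 6 times any Day 3 library. The lowest value stood on 9 reads, in the third Day 3 replicate, and the highest on 380. LUCAT1 was 10.6 times higher by the means, with a log2 fold change of 3.53 (SE 0.33; adjusted p = 3.41e-07), and of 2.99 without the third Day 3 replicate. By size of log2 fold change it ranked 25 of the 20129 genes tested. It remained the lowest of the 9 per kilobase, with 1.93 ± 1.05 on Day 3 and 20.4 ± 3.68 on Day 5 (SD, n = 3). That scale divides by all annotated exons merged, 16558 bp for LUCAT1, whose longest transcript has 3072 bases. The Day 5 rank thus depends on the length used. By value, the LUCAT1 mean of 337 on Day 5 was above the 264 of H19.

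Promoters are shown for LUCAT1 and NORAD, the RNA that changed most and the Pumilio-binding RNA that doubled. Both run from 250 bases before to 50 bases after the RefSeq start (GRCh38.p14), at chr5:91314353-91314652 and chr20:36050911-36051210, both on the minus strand. Capitals mark matches, on either strand, to the hypoxia-response cores ACGTG and GCGTG, the antioxidant response element TGACNNNGC bound by NRF2, and the AP-1 motif TGANTCA. These 4 motifs were chosen with the expression results known. Of 35116 RefSeq promoters of the same length, 48.4% held at least one of the hypoxia cores, 13.3% the antioxidant element and 7.71% the AP-1 motif.
LUCAT1 promoter: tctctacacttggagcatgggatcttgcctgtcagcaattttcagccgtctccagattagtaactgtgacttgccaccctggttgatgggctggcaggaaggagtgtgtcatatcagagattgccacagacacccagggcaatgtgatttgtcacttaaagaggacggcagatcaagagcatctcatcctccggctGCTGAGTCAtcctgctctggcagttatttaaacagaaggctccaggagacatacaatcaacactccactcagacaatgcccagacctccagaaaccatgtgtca
NORAD promoter: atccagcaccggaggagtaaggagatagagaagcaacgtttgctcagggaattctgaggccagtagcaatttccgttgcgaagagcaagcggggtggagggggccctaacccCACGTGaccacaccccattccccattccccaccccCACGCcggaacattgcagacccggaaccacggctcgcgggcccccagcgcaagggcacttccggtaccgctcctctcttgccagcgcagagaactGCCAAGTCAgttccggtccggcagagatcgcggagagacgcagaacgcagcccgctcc

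In the LUCAT1 promoter the only capitals are a run where an antioxidant element, from position -54 relative to the start, and an AP-1 motif, from position -52, overlap. The NORAD promoter has the hypoxia core ACGTG on both strands within CACGTG (from -138 and -137), a GCGTG core on the other strand at -103 and an antioxidant element at -8. The promoters of other lncRNAs held such matches too, counted on either strand. OIP5-AS1, which fell, had 3 matches to ACGTG and 1 to GCGTG, and TUG1 had 2 of each. MALAT1, which did not pass the test, has a pair of RefSeq promoters, of which the upstream one held 2 GCGTG cores and 2 antioxidant elements and the other 1 GCGTG core. The H19 promoter had none of these motifs, so these letters are not in that window. A match describes the sequence and was not tested for binding.

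NRF2 target genes did not move together. Of 7, HMOX1 rose (0.87, adjusted p = 0.000132) and NQO1, TXNRD1 and SLC7A11 fell, with SLC7A11, the cystine importer, at -1.26 (adjusted p = 8.42e-09). The median of the 7 was -0.19. Among all protein-coding genes tested, 40.4% rose and 30.4% fell, with a median of 0.12. All 8 hypoxia genes rose (40.4% of protein-coding genes), with a median of 2.68, beside 0.01 over all genes. They ranged from VEGFA, the angiogenic growth factor (1.65, adjusted p = 3.19e-10), through the stress gene NDRG1 (4.68, adjusted p = 8.23e-14) to the carbonic anhydrase CA9 (6.31, adjusted p = 6.32e-09). NEAT1, MALAT1, H19 and LUCAT1 are known to respond to low oxygen, and the part of oxygen in their values was not tested.

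Around LUCAT1, ADGRV1, a large adhesion receptor gene that overlaps it on the opposite strand, fell by 0.92 (adjusted p = 1.99e-07). Reads were counted by strand, so the pair can be told apart. ARRDC3, an arrestin-like tumor suppressor 54083 bp upstream, rose by 1.02 (adjusted p = 1.72e-08).

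**Figure D4:**
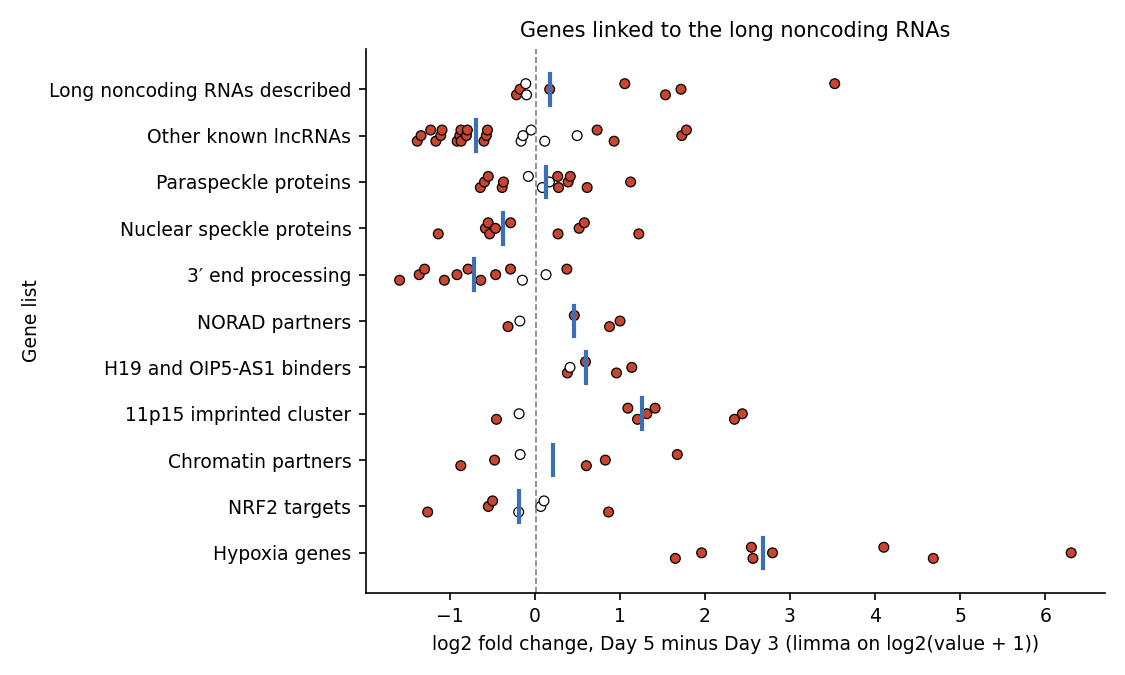
log2 fold change, Day 5 minus Day 3, of the 9 lncRNAs and of each tested gene in the lists around them. Each point is a gene, filled where its adjusted p was under 0.05, blue bars are list medians and the dashed line is the median of all genes tested. Hypoxia genes lie to the right throughout, with a median of 2.68, and 3′ end processing genes mostly to the left, with a median of -0.71.

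H19 (ENSG00000130600, chr11:1995166-2004552, minus strand) is an imprinted fetal RNA expressed from the maternal allele, opposite in parent of origin to IGF2. Its values were 60.6, 103 and 78.0 on Day 3, and 208, 285 and 299 on Day 5. All Day 5 libraries were at least double the highest of Day 3, on 55 to 289 reads per library. H19 rose 3.29-fold by the means, a log2 fold change of 1.72 (SE 0.19; adjusted p = 1.85e-06). IGF2, the growth factor 124559 bp away, went from 161 ± 29.3 to 871 ± 52.6 (SD, n = 3), a log2 fold change of 2.44 (SE 0.13; adjusted p = 1.08e-09). The log2 ratio of H19 to IGF2 changed from -1.02 ± 0.35 to -1.74 ± 0.37, a difference of -0.72 with exact permutation p = 0.1, the smallest possible here. MRPL23, a mitochondrial ribosomal protein gene on the other side, fell by 0.64 (adjusted p = 7.61e-05).

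KCNQ1OT1 (ENSG00000269821, chr11:2597308-2700003, minus strand) is a paternally expressed, mostly unspliced RNA that silences its neighbors on the same chromosome copy. The values were 6059, 5254 and 4731 on Day 3, and 5065, 5011 and 4763 on Day 5. All Day 5 libraries lay within the Day 3 range. The log2 fold change was -0.11 (SE 0.09; 95% interval -0.29 to 0.08; adjusted p = 0.319). It was called lower without the third Day 3 replicate (-0.19, adjusted p = 0.0173) and under median centring (-0.28, adjusted p = 0.0158).

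Of the 8 genes of this 11p15 cluster, 6 rose (40.4% of protein-coding genes) and 1 fell (30.4%), with a median of 1.26. CDKN1C, the cell cycle inhibitor p57 and a known target of KCNQ1OT1 silencing, rose from 102 ± 16.9 to 518 ± 45.0 (SD, n = 3; log2 fold change 2.35; adjusted p = 3.48e-09). KCNQ1, the potassium channel gene that KCNQ1OT1 overlaps on the opposite strand, rose by 1.09 (adjusted p = 9.80e-06). The growth regulator PHLDA2 (1.32, adjusted p = 4.71e-07) and the transporter SLC22A18 (1.41, adjusted p = 3.65e-08) rose as well. TSSC4 fell (-0.45, adjusted p = 0.00878). The values do not separate the parental alleles. The log2 ratio of KCNQ1OT1 to CDKN1C changed from 5.72 ± 0.43 to 3.26 ± 0.16 (SD, n = 3; exact permutation p = 0.1, the smallest possible).

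Of 5 proteins that bind H19 or OIP5-AS1, 4 rose and none fell, with a median of 0.60. Of all protein-coding genes tested, 40.4% rose and 30.4% fell. They were IGF2BP2 (0.96, adjusted p = 2.61e-07) and IGF2BP3 (0.38, adjusted p = 0.000385), readers of H19 and of IGF2 messenger RNA, the stabilizing protein ELAVL1 (HuR), which binds OIP5-AS1 (0.60, adjusted p = 5.41e-05), and the decay factor KHSRP (1.14, adjusted p = 4.22e-07). IGF2BP1, at means of 35.2 and 45.7, missed the threshold (0.41, adjusted p = 0.200).

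OIP5-AS1 (ENSG00000247556, chr15:41283958-41322392, plus strand) carries an extensive site for miR-7-5p, the sequence by which it directs the decay of that microRNA. The mature miR-7-5p (RefSeq) is printed 5′ to 3′ with its seed, bases 2 to 8, in capitals. The site in OIP5-AS1 is at chr15:41300570-41300601 (GRCh38, plus strand, exonic), in capitals where it is the reverse complement of the microRNA.
miR-7-5p: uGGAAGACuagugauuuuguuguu
OIP5-AS1 site: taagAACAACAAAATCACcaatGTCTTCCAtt

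The longest match was a run of 14 bases, which pairs with bases 11 to 24 of the microRNA. A second run of 8 bases pairs with its 5′ end including the seed, and between both runs 4 bases of OIP5-AS1 and 2 of the microRNA do not pair. Of 72 annotated OIP5-AS1 transcripts, 12 hold the longer run, and the values per gene do not separate transcripts with the site from those without.

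The OIP5-AS1 values were 6533, 6495 and 6291 on Day 3, and 5560, 5492 and 5591 on Day 5. The days did not overlap, with each tightly grouped. OIP5-AS1 fell by 0.21 on the log2 scale (SE 0.07; adjusted p = 0.0140), or to 0.861 of its Day 3 mean. It lost the call under library totals (given above) and without the second replicate of Day 3 (adjusted p = 0.0531) or of Day 5 (adjusted p = 0.0633). NUSAP1, a spindle protein gene, shares 195 bases of exon with OIP5-AS1 on the same strand in GENCODE 44 and fell by 0.70 (adjusted p = 6.16e-07). Reads in the shared stretch make both values uncertain. ENSG00000285920, a protein-coding gene that had no values here, shares 513 bases of exon with OIP5-AS1 on that strand. OIP5, a centromere protein gene overlapping on the opposite strand, fell by 0.94 (adjusted p = 1.60e-06). CHP1, 2070 bp upstream, rose by 0.54 (adjusted p = 0.000147).

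In the small-RNAseq libraries, miR-7-5p had deposited log2 values of 9.73, 9.83 and 9.57 on Day 3, 9.86, 10.14 and 10.09 on Day 5, and 9.75, 10.01 and 10.09 on Day 7. All Day 5 values lay above those of Day 3, and the Day 7 values overlapped both. The change was 0.32 on Day 5 (SE 0.11; adjusted p = 0.0663 by limma over 539 miRNAs) and 0.24 on Day 7 (SE 0.11; adjusted p = 0.0795 over 559 miRNAs). Neither passed, where 16.5% of miRNAs did on Day 5 and 56.9% on Day 7, though the unadjusted limma p was 0.0124 and 0.0495. Scaling by library totals gave calls on both days, higher on Day 5 (0.31, adjusted p = 0.00725) and lower on Day 7 (-0.26, adjusted p = 0.0220), so the direction on Day 7 rests on the scaling. Both days are compared with the same Day 3 libraries, and mature reads do not tell the genes that encode miR-7-5p apart.

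**Figure D5:**
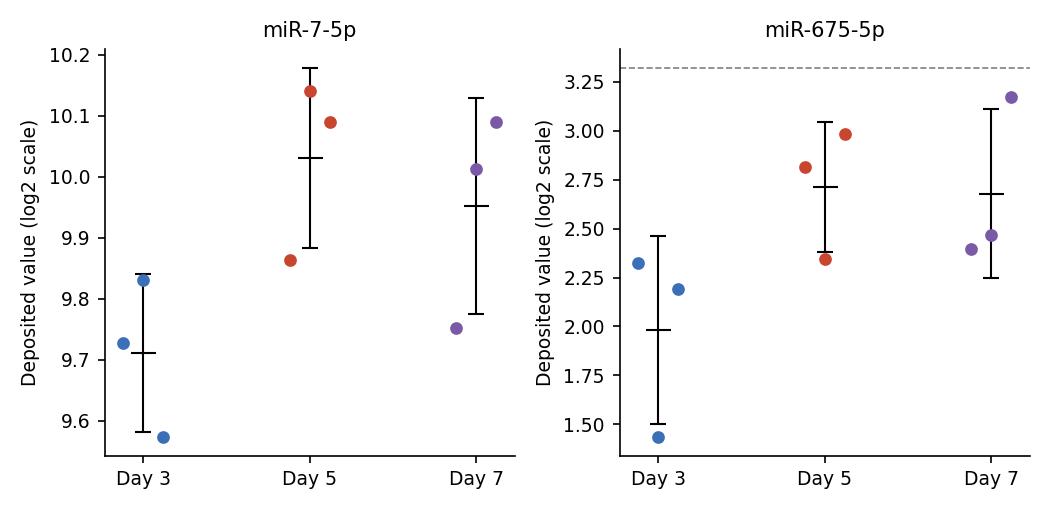
Deposited log2 value of miR-7-5p and of miR-675-5p, which is made from H19, in the 3 small RNA libraries of each day. Points are libraries, and error bars are SD around the mean. The dashed line is the filter of a back-transformed value of 10, which miR-675-5p does not reach; miR-7-5p means are 9.71, 10.03 and 9.95, and the vertical axes do not start at 0.

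MicroRNAs made from the lncRNAs were too low to test. The hairpin of miR-675 lies in an H19 exon, that of miR-612 in NEAT1, and 5 lie within PVT1. None of the 7 mature miRNAs found for these hairpins reached the filter. The highest, miR-675-5p, had mean log2 values of 1.98 ± 0.48, 2.71 ± 0.33 and 2.68 ± 0.43 on Days 3, 5 and 7 (SD, n = 3), and without the filter its adjusted p was 0.512 on Day 5 and 0.306 on Day 7. miR-612 had -1.16, -0.70 and -0.89, and the PVT1 miRNAs miR-1204, miR-1205, miR-1206 and miR-1208 stood between -2.63 and -2.50 in every library, close to the lowest values of the table. The means of miR-1207-5p were -1.45, -1.25 and -1.46.

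PVT1 (ENSG00000249859, chr8:127794526-128187101, plus strand) lies next to MYC and is often amplified with it in tumors. Its values were 3424, 3468 and 3596 on Day 3, and 3096, 3077 and 3126 on Day 5. The days did not overlap, and PVT1 had the smallest relative spread of the 9 on Day 5 (SD 0.797% of the mean). It fell by 0.17 on the log2 scale (SE 0.07; adjusted p = 0.0399), a call lost under 7 of the 14 alternatives. MYC, the growth-promoting transcription factor 51574 bp away, went from 4041 ± 629 to 8211 ± 261 (SD, n = 3; log2 fold change 1.03; adjusted p = 3.42e-07). The log2 ratio of PVT1 to MYC changed from -0.20 ± 0.19 to -1.40 ± 0.03 (exact permutation p = 0.1, the smallest possible).

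TUG1 (ENSG00000253352, chr22:30969245-30979395, plus strand, listed as protein-coding in GENCODE 44) had values of 4518, 4231 and 4088 on Day 3, and 4879, 4891 and 4716 on Day 5. Every Day 5 library was above every Day 3 library. TUG1 rose 1.13-fold by the means, a log2 fold change of 0.18 (SE 0.07; adjusted p = 0.0465), and lost the call under 10 of the 14 alternatives, among them each single library left out except the first Day 3 replicate. MORC2, a chromatin compaction ATPase that starts 470 bp away on the opposite strand, went from 1032 ± 85.0 to 2197 ± 97.5 (SD, n = 3; log2 fold change 1.09; adjusted p = 3.37e-08). The log2 ratio of TUG1 to MORC2 changed from 2.05 ± 0.19 to 1.14 ± 0.09 (exact permutation p = 0.1, the smallest possible).

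Over all loci, the protein-coding neighbors and overlapping genes numbered 21, of which 18 were tested, 11 rose and 6 fell, with a median of 0.74. Of all protein-coding genes tested, 40.4% rose and 30.4% fell, with a median of 0.12. The neighbors were not tested against this background. Among them EPB41L1, 40485 bp from NORAD, rose by 1.14 (adjusted p = 3.02e-07).

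Of 6 chromatin regulators reported to bind such RNAs, 3 rose (40.4% of protein-coding genes) and 2 fell (30.4%), with a median of 0.22. The Polycomb subunits EZH2 (-0.47, adjusted p = 3.08e-05) and EED (-0.87, adjusted p = 1.31e-07) fell, and SUZ12 had -0.17 (adjusted p = 0.0531) and passed, as a fall, under median centring (-0.34, adjusted p = 0.000429). JARID2, which recruits that complex, rose by 1.68 (adjusted p = 2.97e-10). The H3K9 methyltransferase EHMT2 (0.83, adjusted p = 7.43e-07) and the DNA methyltransferase DNMT1 (0.61, adjusted p = 1.53e-05) rose.

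Among other known noncoding RNAs, falls outnumbered rises. Of 24 tested from a list of 30, 4 rose and 15 fell, with a median of -0.69, beside 475 higher and 426 lower of the 2736 annotated lncRNA genes tested, with a median of 0.02. UCA1, an RNA first known from bladder cancer, rose by 1.73 (adjusted p = 2.21e-09) and TINCR, an epidermal differentiation RNA, by 1.78 (adjusted p = 2.48e-06). The small nucleolar RNA hosts SNHG1 (-1.38, adjusted p = 2.43e-09), GAS5 (-0.91, adjusted p = 1.11e-07) and ZFAS1 (-0.87, adjusted p = 1.98e-07) fell. RMRP, the RNA of RNase MRP, which shares its proteins with RNase P, changed by -0.87 (adjusted p = 0.000151).

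For each lncRNA, the genes with the most similar pattern were found among 12714 genes with a mean value of at least 100, by the root mean square difference of centred log2 values over the 6 libraries. For LUCAT1 this was MIR210HG, the host of the hypoxia-linked miR-210, at 0.48, the loosest match named for the 9. For H19 it was EFNA3 (0.13), for NEAT1 FANK1 (0.06) and ICAM5 (0.09), and for NORAD KSR2 (0.03) and the kinase RIOK3 (0.03). MALAT1 was closest to CREB1 (0.02) and ZNF75A (0.02), KCNQ1OT1 to MPP3 (0.02), TUG1 to GATAD1 (0.02) and SPG11 (0.02), PVT1 to RABGAP1 (0.02), and OIP5-AS1 to SLF2 (0.02) and AZI2 (0.02). For the RNAs that hardly changed, such closeness says little beyond a small change.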

How the data were processed

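Whole cell RNA of HCT116 cells was measured by whole transcriptome RNAseq (rRNA-depleted, with dUTP strand marking and molecular identifiers in the adapters) and by small-RNAseq. Groups were taken from the sample titles. The authors mapped whole transcriptome reads strand-specifically to ENSEMBL genes of hg38 in CLC Genomics Workbench, and the submitters' processing notes name FastQC 0.11.8 and MultiQC 1.7. The deposited values are a normalized signal for each gene, with 1 column a library, for which the methods name TMM, while the columns are laid out as in a DESeq2 result. Dividing by the smallest value above 0 of a library turned 100% of its values into whole reads (tolerance 0.01). The authors deposited small RNA values on a log2 scale whose transformation is not given in the sources used here, after mapping to mature and hairpin miRNAs with TMM and edgeR named, and their depth is unknown from these values. How molecular identifiers were used in counting is not given either. Columns of the authors' own fold changes and p-values were not used, and the 3 whole transcriptome libraries of Day 7 were not analysed here.

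The lncRNAs and the gene lists were chosen with earlier results of these data known. CCAT1 matched no symbol, and the tables used here pair it with no identifier. Symbols missing from the table were filled from the reference by identifier for 10653 of 13081 genes. Genes reaching a value of 10 in 3 or more of the 6 libraries were tested with limma 3.58.1 (R 4.3.3, trend) on log2(value + 1), which understates the change of low genes, and miRNAs reaching a back-transformed value of 10 in 3 or more libraries on the deposited log2 values. P-values were adjusted by Benjamini-Hochberg over all features, with a threshold of 0.05. The spread between libraries limits precision for all 9, and LUCAT1 and H19 also rest on few reads, which are given. For ratios of 2 genes, days were compared with a two-sided exact permutation test. All 9 lncRNAs found were named, and of each list up to 6 genes: the largest rise and fall and those that bind, process or adjoin an lncRNA. Nearest patterns were the 2 genes with the smallest difference. A few genes that these rules name are not reported here. Alternatives were library totals, median centring, no filter, a minimum of 100, a pseudocount of 0.1, a replicate block, edgeR 4.0.16, DESeq2 1.42.0 and leaving out each library. edgeR on whole reads called 12280 genes and limma 12055.

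On simulated data, with 200 of 19778 genes changed 2-fold, the whole transcriptome fit recovered 89.5% with 10 false calls. Far more genes, 59.9%, were called in the deposited data, so this setting cannot show how many of those calls were false. The miRNA fit for Day 5 recovered 60 of 60 among 539 with 5 false calls. Loci, exon lengths and transcripts came from GENCODE 44 on GRCh38, and promoters and miRNAs from RefSeq (GRCh38.p14), where 6 of the 10 lncRNAs had a promoter. Levels per kilobase divide by the merged length of all annotated exons of a gene. Tables and figures used Python 3.11.15, pandas 2.3.3, numpy 2.4.6 and matplotlib 3.10.9.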

Additional observations from a re-analysis of the deposited data

How the results depend on the processing

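NEAT1, NORAD, H19 and LUCAT1 kept their direction and their call under all 14 alternatives, with log2 fold changes of 1.37 to 1.65, 0.89 to 1.12, 1.53 to 1.91 and 2.99 to 3.88. MALAT1 was called under none. The number of lncRNAs called was 4 to 7 when single libraries were left out, with 4 without the second Day 3 replicate and 4 without the second Day 5 replicate. TUG1 lost its call under 10 alternatives, PVT1 under 7 and OIP5-AS1 under 3, and KCNQ1OT1 gained one under 2. The cause was not tested. edgeR and DESeq2 each called 6.

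Of the miRNAs linked to these lncRNAs 0 were called, and 1, miR-7-5p, with library totals on both days, without the third Day 3 replicate on Day 5, and without the second Day 3 or the first Day 7 replicate on Day 7 (range 0 to 1 on each day). Its Day 7 change reversed to -0.26 with library totals.

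Correlations of same-numbered samples were -0.01 to 0.03 in the whole transcriptome, 0.07 to 0.12 between small RNA Days 3 and 5 and 0.01 to 0.11 between Days 3 and 7. In none was every pair over 0.1, but with 3 libraries a day these correlations cannot show whether same-numbered samples were paired. The authors used a paired t-test for miRNA reads of Day 7 against Day 3. With the replicate number as a block, 5 lncRNAs were called (4 higher, 1 lower), TUG1 and PVT1 losing theirs, and 1 miRNA on Day 5 (0.32, adjusted p = 0.0355 by limma). The replicate block changed no other call of these lncRNAs.

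Depth limits LUCAT1 and H19, with as few as 9 and 55 reads, and the miRNAs made from the lncRNAs, which were below the filter.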
